A study of Mus musculus with 12 samples.

Results

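The TGF-beta and activin genes were described in rectal RNA of mice with and without colitis and with and without berberine (BBR). They are 10 of the 17734 genes of the deposited table, taken by their symbols from a list of pathway genes. They are Tgfb1, Tgfb2 and Tgfb3 (the TGF-beta ligands), Inhba and Inhbb (the activin subunits), Tgfbr1 and Tgfbr2 (the TGF-beta receptors), Smad7 and Skil (inhibitors inside the cell) and Tgfbi (a secreted matrix protein named for its induction by TGF-beta). All 10 had a row in the table and all 10 passed the filter on low values, which asked for a mean of 0.1 or more.

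The study compared 4 groups of 3 male C57BL/6 mice, aged 8 to 10 weeks, for which the labels name no engineered allele. Normal mice drank plain water. Colitis mice drank 2.5% dextran sulfate sodium (DSS), a polymer that injures the bowel lining, for 7 days. The other two groups, again normal and colitis mice, received BBR, a plant alkaloid, by gavage at 100 mg/kg per day. It was given for 7 days by the methods and for 6 days by the labels, and the labels name the tissue colorectum. Nothing in the sources says that the mice of a group came from separate cages or litters.

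TGF-beta is secreted in a latent form, bound to its own propeptide and to latent TGF-beta binding proteins, and integrins release it. The active ligand, like activin, joins a type II to a type I receptor, which phosphorylates Smad proteins that then enter the nucleus with Smad4. Smad7 blocks the receptor and is itself induced by the pathway, and Skil binds Smads on DNA. In the bowel TGF-beta is known for restraining T cells and for driving matrix production by fibroblasts and smooth muscle, and activin A is known as a ligand made in inflamed tissue.

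The values were taken to be FPKM, a level scaled by the length of the transcript and by depth, so that levels can be compared between genes. Differences are log2 fold changes on the log2(FPKM + 0.1) scale, on which changes of low genes come out too small, with their standard error (SE) from a limma fit over all 12 mice. Adjustment of p-values followed Benjamini and Hochberg across all 15315 tested genes, with a limit of 0.05. With 3 mice in each group, the smallest p of an exact permutation test (two-sided) is 0.1.

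The 4 mice numbered 4, 1 in each group, stood apart from the others. Their columns summed to 482194 to 504337, against 696286 to 765876 in the 8 mice numbered 1 to 3, and 872 to 1086 of their genes were at 0, against 1332 to 1926. The steps between low values gave the worth of 1 read per 1000 bases of transcript, counted after an offset was taken off its length. For the mice numbered 4 the offset was 50 bases and the worth 0.049 to 0.059 FPKM. Elsewhere the offset was 250 bases and the worth 0.061 to 0.071 FPKM, so that the 2 ranges are not for transcripts of the same full length. Within its group the mouse numbered 4 had the highest Tgfb2, Tgfbr1 and Smad7 in 4 of 4 groups. It had the highest Tgfb1, Tgfb3, Tgfbi and Inhba in 3 of 4. For some of the 10 genes, differences are therefore given in the text with and without these mice. The plot of log2 fold changes by gene shows both for the 10 genes in 3 comparisons. Differences of the other pathway genes are given over all 12 mice only. Epithelial markers summed to 6023 to 12770 FPKM over the 12 mice, and none of the 8 was at 0 throughout a group. The direction of many genes depended on the scaling between mice. In colitis against normal mice the tested genes had a median difference of −0.32 as deposited, against −0.05 once quantile normalized, and at an unadjusted p of at most 0.05 there were 852 higher and 2428 lower genes as deposited, against 1488 and 1521.

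The members covered a wide range of levels. The mean over the 12 mice was 25.1 FPKM for Tgfbr2, 20.6 for Skil, 18.7 for Tgfbi, 8.83 for Smad7, 5.29 for Tgfbr1, 5.06 for Tgfb1, 1.84 for Tgfb3, 0.99 for Tgfb2, 0.655 for Inhba and 0.168 for Inhbb. Neighbours in this order overlapped over the 12 mice, so that the order of Tgfbr1 and Tgfb1, for example, is not beyond their spread. Tgfbr2 stood between 16.23 and 38.60 FPKM in every mouse, while Tgfb1, the ligand with the highest mean, stood between 1.43 and 8.48. The lowest transcripts rested on few reads. The worth of 3 reads was 0.0232 to 0.0347 FPKM for Inhba and 0.035 to 0.0532 for Inhbb, and 1 value, Inhbb in a colitis mouse receiving BBR, lay under it. These limits cover counting error only.

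**Figure D1:**
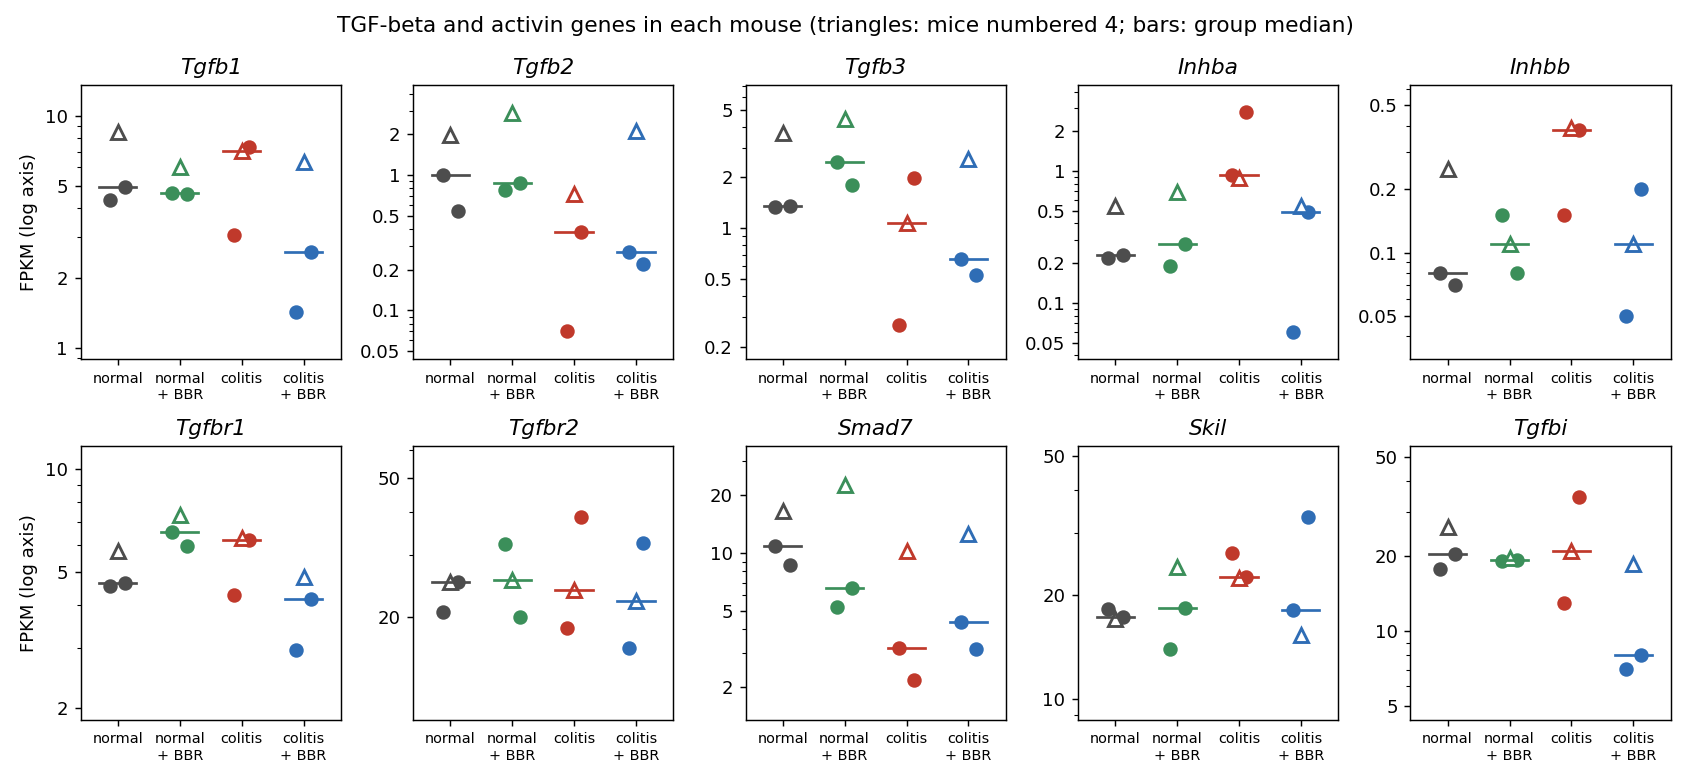
FPKM (log axis) of the 10 genes in each mouse of the 4 groups, with circles for the mice numbered 1 to 3, triangles for the mice numbered 4 and a bar at the group median. Inhba in the 3 colitis mice, 0.88 to 2.81 FPKM, lies above all 3 normal mice and all 3 colitis mice receiving BBR.

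No member passed the adjusted limit in any of the 6 comparisons of the limma fit over 12 mice. In colitis against normal mice 0 of 10 passed, where 1.08% of all tested genes did, and 1 of 10, Inhba, had an unadjusted p of at most 0.05, where 21.4% did. After quantile normalization 3 of 10, Inhba, Inhbb and Tgfbr1, were higher at that unadjusted limit, where 9.72% of tested genes were, and 0 passed the adjusted one. As deposited, 5 of the 10 had a positive and 5 a negative difference, with a median of 0.06 against −0.32 over all tested genes. The groups did not overlap for 2 of 10, Inhba and Skil, both higher in colitis mice, where 7.1% of all tested genes were higher without overlap and 22.2% lower.

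The clearest value among the ligands was that of Inhba, which encodes the beta A subunit of activin A. Inhba was 0.22, 0.23 and 0.54 FPKM in the normal mice and 0.93, 2.81 and 0.88 FPKM in the colitis mice. It was 0.19, 0.28 and 0.69 FPKM in normal mice receiving BBR and 0.06, 0.49 and 0.54 FPKM in colitis mice receiving BBR. Every colitis mouse was above every mouse of the other 3 groups, which overlapped each other.

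Between colitis and normal mice the Inhba difference was 1.81 (SE 0.64, n = 3 against 3, limma unadjusted p = 0.0153, adjusted p = 0.148, exact permutation p = 0.1). It was larger than that of 97.9% of the tested genes. It was 2.41 over the mice numbered 1 to 3 (adjusted p = 0.081), and 0.61 between the 2 mice numbered 4, 1 mouse against 1. With each mouse left out in turn it stayed between 1.30 and 2.14, and the unadjusted limit was met in 4 of 6 fits. It was missed without colitis mouse 2 and narrowly without normal mouse 1, with 1.30 and 1.64. Macrophage markers, all 6 in the table, summed to 122.7 to 157.1 FPKM in normal and 210.5 to 656.4 FPKM in colitis mice, and neutrophil markers, also 6, to 0.29 to 2.03 and 45.4 to 493.2 FPKM, with S100a8 at 0 in all normal mice. The mouse numbered 4 had the lowest neutrophil sum in both colitis groups, at 45.4 FPKM against 477.4 and 493.2 in colitis mice and at 2.55 against 197.2 and 218.0 in those receiving BBR. Inhba per 1000 FPKM of macrophage markers was 1.79, 1.46 and 3.62 in normal mice and 2.86, 4.28 and 4.18 in colitis mice, which overlap. The part of these cells in the Inhba values was not tested, and in bulk RNA fewer cells of a type and less RNA per cell cannot be told apart.

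Inhbb, the beta B subunit of activin B, was near its detection limit. It was 0.08, 0.07 and 0.25 FPKM in the normal mice and 0.15, 0.38 and 0.39 FPKM in the colitis mice, which overlap (0.82, SE 0.44, adjusted p = 0.284, and 1.14 after quantile normalization). It was 0.15, 0.08 and 0.11 FPKM in normal mice receiving BBR and 0.05, 0.20 and 0.11 FPKM in colitis mice receiving BBR. Follistatin (Fst), the secreted protein that binds activin, was 0.23, 0.62 and 0.58 FPKM in the normal mice and 0.14, 0.89 and 0.56 FPKM in the colitis mice. The ratio of Inhba to Fst within a mouse was 0.957, 0.371 and 0.931 in normal mice and 6.64, 3.16 and 1.57 in colitis mice, with no overlap. In mice receiving BBR it was 0.543, 2.33 and 1.44 without colitis and 0.667, 1.69 and 1.59 with colitis, and both of these groups overlapped the colitis mice. This ratio was chosen after the values were seen and was not tested.

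The 3 TGF-beta ligands had unlike differences, none of which passed the adjusted limit. Tgfb1, the main ligand of immune cells, was 4.32, 4.91 and 8.48 FPKM in the normal mice and 3.06, 7.32 and 7.05 FPKM in the colitis mice. Its difference was −0.06 (SE 0.50, adjusted p = 0.952), and it turned to 0.29 after quantile normalization. Tgfb2, an isoform best known from development, was 1.00, 0.54 and 1.99 FPKM in the normal mice and 0.07, 0.38 and 0.73 FPKM in the colitis mice. The 2 groups overlapped in 1 value each, and the difference was −1.48 (SE 0.83, adjusted p = 0.305) and −1.10 after quantile normalization. It ranged from −1.99 without colitis mouse 4 to −0.85 without colitis mouse 1, whose 0.07 FPKM rests on about 5.1 reads. Tgfb3 was 1.33, 1.36 and 3.66 FPKM in the normal and 0.27, 1.98 and 1.08 FPKM in the colitis mice, again with overlap (−1.04, SE 0.71, adjusted p = 0.387). The Tgfb3 difference was −0.59 after quantile normalization and ranged from −1.59 without colitis mouse 2 to −0.34 without colitis mouse 1, with −0.58 without normal mouse 4.

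Within a mouse the mix of ligands can be read without any scaling between mice. Tgfb1 made up 65.0%, 72.1% and 60.0% of the summed FPKM of the 3 genes in normal mice and 90.0%, 75.6% and 79.6% in colitis mice. It made up 58.9%, 63.2% and 45.1% in normal mice receiving BBR and 60.6%, 77.5% and 57.4% in colitis mice receiving BBR. Tgfb1 thus had a higher share in each colitis mouse than in each normal mouse, while colitis mice receiving BBR overlapped both groups. Tgfb2 made up 15.0%, 7.93% and 14.1% in normal mice and 2.06%, 3.93% and 8.24% in colitis mice. These shares were chosen after the values were seen and were not tested.

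**Figure D2:**
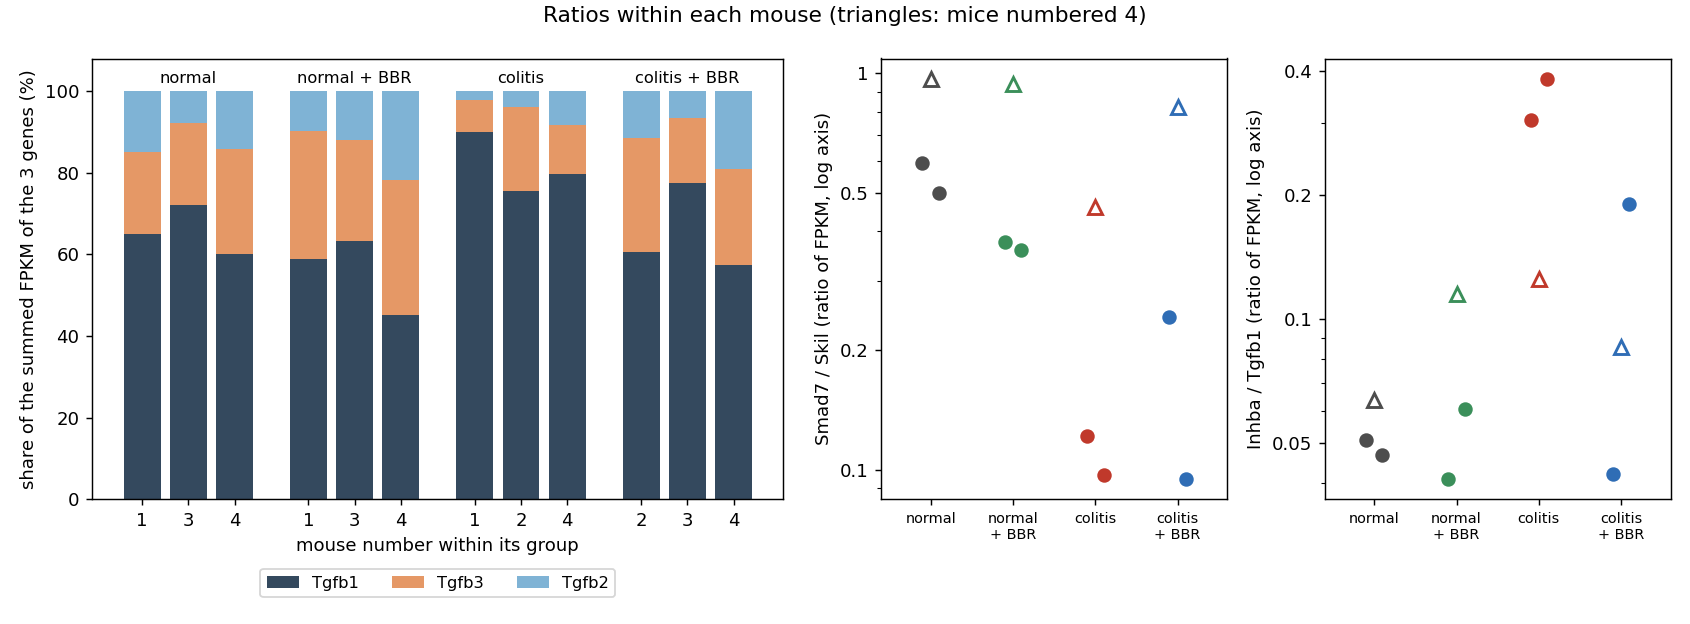
Left, share of each TGF-beta ligand in the summed FPKM of the 3 genes (%), 1 bar per mouse, with the mouse number under it; middle and right, the ratio of Smad7 to Skil and of Inhba to Tgfb1 within each mouse (log axis), with triangles for the mice numbered 4. The Tgfb1 share is 75.6% to 90.0% in colitis mice and 60.0% to 72.1% in normal mice.

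The genes whose pattern was most like that of a ligand were looked up over the mice. Among 11936 other genes with a mean of at least 1 FPKM, the 3 with the highest Pearson r to Tgfb2 over the 12 mice were Synpo2, a smooth muscle protein (0.987), Samd4 (0.986) and Adam33 (0.981). Over the 8 mice numbered 1 to 3 these values were 0.977, 0.965 and 0.969. For Tgfb3 they were Scn7a (0.969), Fgfr1 (0.967) and Msrb3 (0.965). For Tgfb1 they were Scube1 (0.956), Fscn1, an actin-bundling protein (0.95), and Loxl2, an enzyme that crosslinks collagen (0.947). For Inhba they were Pla1a (0.934), Cd84, a receptor of leukocytes (0.934), and Hgf, hepatocyte growth factor (0.926). These are descriptions over mice that share groups and the step between the mice numbered 4 and the others.

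Synpo2 is also 1 of the smooth muscle markers, which were low in the colitis mice, as Tgfb2 was. All 8 were in the table, and they summed to 1643 to 3081 FPKM in normal mice, 2311 to 4908 in normal mice receiving BBR, 71.5 to 660.5 in colitis mice and 477.2 to 3473 in colitis mice receiving BBR, with the highest sum of every group in the mouse numbered 4. Tgfb2 per 1000 FPKM of these markers was 0.506, 0.329 and 0.646 in normal mice and 0.979, 0.582 and 1.11 in colitis mice, which overlap. Tgfb3 per 1000 FPKM was 0.673, 0.828 and 1.19 in normal mice and 3.77, 3.03 and 1.64 in colitis mice, with no overlap. Tgfb3 itself overlapped between these groups, while the marker sum it was divided by was lower in every colitis mouse than in every normal mouse. The part of muscle in the level of Tgfb2 and Tgfb3 was not tested.

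The promoters of 3 of the ligands described above are shown, to set their letters side by side, from RefSeq on GRCm38.p6, which is not the build of the deposited values, as 250 bases before and 50 after the start. Of the 10 members, 7 had an entry. Capitals mark matches on either strand to TATAAA (the TATA box), CAGACA (the core of the CAGA box that Smads bind), GTCTAGAC (the palindromic Smad element), TGANTCA (an AP-1 site), TGACGTCA (a cyclic AMP response element) and GGGCGG (the Sp1 box). Inhba lies at chr13:16011601-16011900 on the plus strand, Tgfb1 at chr7:25686752-25687051 on the plus strand and Tgfb2 at chr1:186705940-186706239 on the minus strand.
Inhba: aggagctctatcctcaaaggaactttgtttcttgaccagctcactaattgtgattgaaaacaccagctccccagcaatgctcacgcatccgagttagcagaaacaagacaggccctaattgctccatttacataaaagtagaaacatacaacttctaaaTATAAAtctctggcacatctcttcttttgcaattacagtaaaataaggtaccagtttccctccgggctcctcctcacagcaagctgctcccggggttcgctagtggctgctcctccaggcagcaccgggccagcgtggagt
Tgfb1: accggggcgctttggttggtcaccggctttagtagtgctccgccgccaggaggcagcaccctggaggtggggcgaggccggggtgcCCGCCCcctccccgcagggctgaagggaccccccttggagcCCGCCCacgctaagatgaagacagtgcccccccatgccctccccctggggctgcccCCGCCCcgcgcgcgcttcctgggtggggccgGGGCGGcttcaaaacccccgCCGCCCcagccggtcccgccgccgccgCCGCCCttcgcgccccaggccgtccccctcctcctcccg
Tgfb2: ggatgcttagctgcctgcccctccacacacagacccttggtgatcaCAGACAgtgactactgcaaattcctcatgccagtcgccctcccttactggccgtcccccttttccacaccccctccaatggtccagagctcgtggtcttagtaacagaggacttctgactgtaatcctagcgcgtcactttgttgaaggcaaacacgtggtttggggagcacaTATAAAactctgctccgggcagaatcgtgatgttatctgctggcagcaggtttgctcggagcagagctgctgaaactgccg
The Tgfb1 promoter held 6 Sp1 boxes and no TATAAA, with 77.0% G and C. The Tgfb2 promoter held TATAAA at bases 220 to 225 and CAGACA at bases 47 to 52, with 54.3% G and C. The Inhba promoter held TATAAA at bases 160 to 165, with 47.7% G and C. TATAAA was found in 13.6% of all 32851 promoters of this length, CAGACA in 21.0%, GGGCGG in 35.7%, TGANTCA in 7.81%, TGACGTCA in 1.79% and GTCTAGAC in 0.213%. No letters of the last 3 were found in these windows, and a match is a description and not a binding site.

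The receptors overlapped between colitis and normal mice, with differences smaller than their SE as deposited. Tgfbr1, the type I receptor kinase, was 4.56, 4.64 and 5.76 FPKM in the normal mice and 4.28, 6.19 and 6.28 FPKM in the colitis mice (0.15, SE 0.25, adjusted p = 0.734). The Tgfbr1 difference was 0.51 after quantile normalization (limma unadjusted p = 0.0327) and 0.48 with centring on the median (unadjusted p = 0.0461). Tgfbr2, the type II receptor that binds the ligand first, was 20.62, 25.23 and 25.20 FPKM in the normal mice and 18.60, 38.60 and 23.80 FPKM in the colitis mice (0.13, SE 0.31, adjusted p = 0.818). The colitis mouse numbered 2 had the highest Tgfbr2 of all 12 mice and also the highest Inhba and Tgfbi.

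Smad7, the inhibitor that the pathway itself induces, had the most negative difference of the 10 members between colitis and normal mice over the mice numbered 1 to 3. It was 10.80, 8.61 and 16.46 FPKM in the normal mice and 3.20, 2.17 and 10.27 FPKM in the colitis mice. The colitis mouse numbered 4, at 10.27, overlapped the normal mice, and the other 2 lay below every normal mouse. Over 12 mice the difference was −1.45 (SE 0.68, adjusted p = 0.242, exact permutation p = 0.2) and −1.17 after quantile normalization (adjusted p = 0.327). With each mouse left out in turn it ranged from −2.09 to −0.99, and the unadjusted limit was met in 1 of 6 fits. The 8 mice numbered 1 to 3 hold only colitis mice 1 and 2 and normal mice 1 and 3 for this comparison. Over these 8 mice Smad7 fell by 1.83 on the log2 scale (adjusted p = 0.0336), and 5.25% of all tested genes passed there. With a block for the mice numbered 4 it fell by 1.45 (adjusted p = 0.0203), and 9.22% passed. With a block for every replicate number it missed the limit (adjusted p = 0.0503), where 4.79% passed. No other member passed in these fits. The 8 smooth muscle markers were all lower too, with a median of −3.33 over the mice numbered 1 to 3, and Smad7 and Tgfb2 had a Pearson r of 0.875 over the 12 mice. Both Smad7 and the muscle sum were highest in the mouse numbered 4 of every group, and the part of muscle in Smad7 was not tested. In the mice numbered 4, 1 mouse against 1, the difference was −0.68.

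Skil, a repressor of Smad-driven transcription, had a positive difference. It was 18.22, 17.23 and 16.96 FPKM in the normal mice and 26.29, 22.40 and 22.33 FPKM in the colitis mice, with no overlap (0.43, SE 0.28, adjusted p = 0.365, exact permutation p = 0.1). The ratio of Smad7 to Skil within a mouse was 0.593, 0.5 and 0.971 in normal mice and 0.122, 0.0969 and 0.46 in colitis mice. It was 0.375, 0.359 and 0.938 in normal mice receiving BBR and 0.243, 0.0947 and 0.823 in colitis mice receiving BBR. Normal and colitis mice did not overlap in this ratio, which was chosen after the values were seen and was not tested.

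Tgfbi, which links collagen to integrins, was 17.72, 20.43 and 26.13 FPKM in the normal mice and 12.93, 34.64 and 20.99 FPKM in the colitis mice. The colitis mice lay on both sides of the normal mice, and the difference was −0.00 (SE 0.39, adjusted p = 0.998).

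BBR in colitis mice was compared with colitis alone. Of the 10 members 0 passed the adjusted limit, where 0% of all tested genes did, and 2, Inhba and Tgfbi, had an unadjusted p of at most 0.05, both lower, where 5.2% of tested genes were lower at that limit. The groups did not overlap for 1 member, Inhba, where 5.66% of tested genes were lower without overlap. Of the 10, 7 had a negative difference, with a median of −0.33 against −0.09 over all tested genes.

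The Inhba values given above gave a difference of −1.87 from colitis mice in those receiving BBR (SE 0.64, limma unadjusted p = 0.0131, adjusted p = 0.595, exact permutation p = 0.1). The difference was −2.49 over the mice numbered 1 to 3 and −0.61 between the mice numbered 4. With each mouse left out in turn it stayed between −2.22 and −1.22, and the unadjusted limit was missed without colitis mouse 2 (−1.36) and without mouse 2 of those receiving BBR (−1.22). Only 1.25% of tested genes had a lower difference. The lowest Inhba of all mice, 0.06 FPKM in the colitis mouse numbered 2 receiving BBR, rests on about 5.3 reads. Colitis mice receiving BBR did not differ detectably in Inhba from normal mice (−0.05, SE 0.64, adjusted p = 0.961), a value that is 0.45 after quantile normalization. Macrophage markers summed to 112.5 to 238.9 FPKM and neutrophil markers to 2.55 to 218.0 FPKM in colitis mice receiving BBR. Inhba per 1000 FPKM of macrophage markers was 0.345 to 4.8 in these mice, which overlaps the colitis mice, and the part of these cells in the difference was not tested.

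Tgfbi was 7.06, 8.06 and 18.55 FPKM in colitis mice receiving BBR, and 2 of the 3 lay below every other mouse of the study. The difference from colitis mice was −1.04 (SE 0.39, limma unadjusted p = 0.0199, adjusted p = 0.638). It was −1.48 over the mice numbered 1 to 3 and −0.18 between the mice numbered 4. Leaving out 1 mouse gave from −1.47, without mouse 4 of those receiving BBR, to −0.69, without colitis mouse 2, and met the unadjusted limit in 3 of 6 fits. Tgfb1 was 1.43, 2.58 and 6.31 FPKM in these mice, again lowest in the mice numbered 2 and 3 (−0.89, SE 0.50, adjusted p = 0.902). The Tgfb1 difference was −1.26 over the mice numbered 1 to 3 and −0.16 between the mice numbered 4. Leaving out 1 mouse gave from −1.45, without mouse 4 of those receiving BBR, to −0.41, without their mouse 2. Tgfb1 and Tgfbi had a Pearson r of 0.93 over the 12 mice, the highest of any pair of members. Fibroblast markers, all 7 in the table, summed to 178.7 to 698.6 FPKM in colitis mice and 167.1 to 256.2 FPKM in colitis mice receiving BBR, and their part was not tested.

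Tgfbr1 was 2.95, 4.16 and 4.83 FPKM in colitis mice receiving BBR (−0.49 against colitis mice, SE 0.25, adjusted p = 0.86, and −0.29 without mouse 2 of those receiving BBR). Tgfbr2 was 16.23, 32.60 and 22.26 FPKM, overlapping the colitis mice. Inhbb differed by −0.88 (SE 0.44, adjusted p = 0.826).

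Tgfb2 was 0.27, 0.22 and 2.12 FPKM in colitis mice receiving BBR (0.65, SE 0.83, adjusted p = 1.00), with the high value in the mouse numbered 4. Tgfb3 was 0.66, 0.53 and 2.57 FPKM, and its difference of 0.16 turned to −0.34 without the mice numbered 4. Smad7 was 4.39, 3.18 and 12.55 FPKM (0.42, SE 0.68). Skil was 18.05, 33.57 and 15.25 FPKM, on both sides of the colitis mice (−0.17, SE 0.28). These 4 members thus overlapped between colitis mice with and without BBR, and all 4 changed sign without the colitis mouse numbered 4 receiving BBR, to −0.24 for Tgfb2, −0.48 for Tgfb3, −0.15 for Smad7 and 0.061 for Skil.

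**Figure D3:**
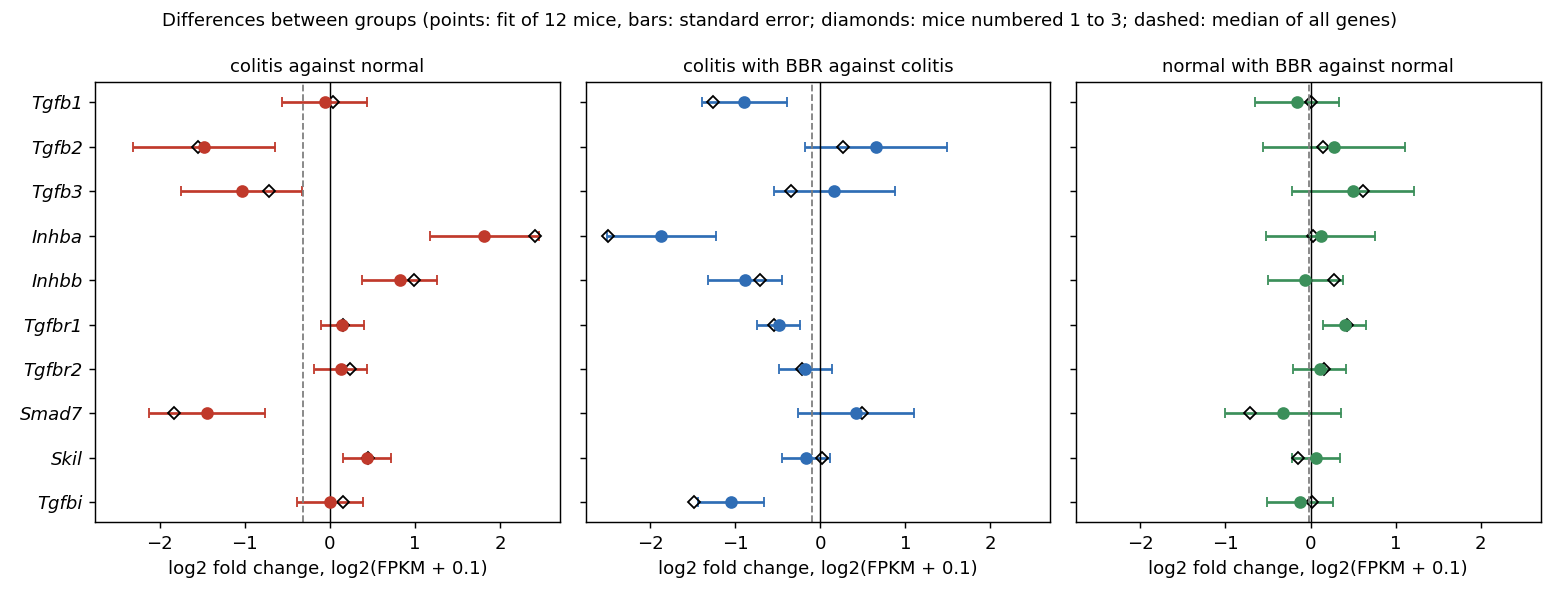
Log2 fold change of each gene on the log2(FPKM + 0.1) scale in 3 comparisons, with the point and its standard error from the fit over 12 mice, the diamond from the mice numbered 1 to 3, and the median of all tested genes as a dashed line. Inhba stands at 1.81 in colitis against normal mice and at −1.87 in colitis mice with against without BBR.

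BBR in normal mice gave small differences. Of the 10 members 0 passed the adjusted limit, where 0% of all tested genes did, and 0 of 10 had an unadjusted p of at most 0.05 in limma, where 1.36% did. The groups did not overlap for 1 member, Tgfbr1, where 4.17% of tested genes were higher without overlap. Tgfbr1 was 6.53, 5.94 and 7.32 FPKM in normal mice receiving BBR, above all normal mice (0.40, SE 0.25, adjusted p = 1.00, exact permutation p = 0.1). Smad7 was 5.23, 6.57 and 22.50 FPKM, the widest span of a member within that group in FPKM, and Tgfb1 4.65, 4.61 and 6.01 FPKM. Tgfb2 at 0.78, 0.88 and 2.90 FPKM, Tgfb3 at 2.47, 1.81 and 4.41 FPKM, Tgfbr2 at 32.30, 19.93 and 25.53 FPKM, Skil at 13.94, 18.32 and 23.99 FPKM and Tgfbi at 19.19, 19.30 and 19.72 FPKM all overlapped the normal mice.

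The effect of BBR in colitis mice was set against its effect in normal mice as an interaction. No member passed the adjusted limit, where 0% of all tested genes did, and 2 of 10 had an unadjusted p of at most 0.05, where 2.42% of tested genes did. For Tgfbr1 the interaction was −0.89 (SE 0.36, limma unadjusted p = 0.0297, adjusted p = 1.00), from 0.40 in normal and −0.49 in colitis mice. For Inhba it was −1.99 (SE 0.90, limma unadjusted p = 0.0486, adjusted p = 1.00), from 0.12 in normal and −1.87 in colitis mice. With each of the 12 mice left out in turn, the unadjusted limit was met in 5 of 12 fits for Tgfbr1 (p up to 0.0735) and in 6 of 12 for Inhba (p up to 0.125). The interaction then ranged from −1.06 to −0.69 for Tgfbr1 and from −2.34 to −1.34 for Inhba.

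Colitis mice receiving BBR were also compared with each normal group, so that both comparisons share the same 3 treated mice. Against normal mice 0 of 10 members passed the adjusted limit, where 0.0196% of tested genes did. Smad7 over the mice numbered 1 to 3 fell by 1.34 (adjusted p = 0.0376), where 14.1% of tested genes passed, and over 12 mice the difference was −1.03 (adjusted p = 0.348). The median over all tested genes was −0.42, and after quantile normalization Smad7 was −0.59, Tgfbi −0.69 and Tgfb1 −0.39. As deposited Tgfbi differed by −1.05 (adjusted p = 0.224), and without the colitis mouse numbered 4 receiving BBR it fell by 1.48 (adjusted p = 0.0232) and Tgfb1 fell by 1.51 (adjusted p = 0.0387), where 18.9% of tested genes passed. Against normal mice receiving BBR 0 of 10 passed, where 0.0392% of tested genes did. Tgfbr1 (−0.74, SE 0.25, adjusted p = 0.215) and Tgfbi (−0.92, SE 0.39, adjusted p = 0.24) were lower without overlap, where 18% of tested genes were. The median over all tested genes was −0.40 in this comparison, and after quantile normalization the differences were −0.28 for Tgfbr1 (limma unadjusted p = 0.214) and −0.56 for Tgfbi (unadjusted p = 0.139). Without the colitis mouse numbered 4 receiving BBR both passed, at −1.35 for Tgfbi (adjusted p = 0.0321) and −0.89 for Tgfbr1 (adjusted p = 0.0477), where 14.7% of tested genes passed. The Tgfbr1 difference from normal mice, −0.34, turned to 0.17 after quantile normalization.

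The other genes of the pathway were taken from 6 lists of 67 genes in all, of which 64 had a row and 62 were tested. Inhbe, Mstn and Nodal had no row. In colitis against normal mice 0 of 62 passed the adjusted limit in limma, where 1.08% of tested genes did. At an unadjusted p of at most 0.05, 4 were higher and 14 lower, where 5.56% of tested genes were higher and 15.9% lower. Of the 62, 15 had a positive and 47 a negative difference. Their median was −0.57, against −0.32 over all tested genes. With a block for the mice numbered 4, 0 were higher and 7 lower at the adjusted limit, where 9.22% of all tested genes passed in either direction. These 7 were Gdf10, Tgif1, Ltbp4, Cd109, Acta2, Tagln and Postn, with adjusted p from 0.00806 for Gdf10 to 0.0488 for Tagln. With a block for every replicate number 4 of them, Gdf10, Ltbp4, Acta2 and Postn, passed, where 4.79% did. The adjusted p-values given below are those of the fit with no block, unless a block is named.

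Among genes that store and release latent TGF-beta, 3 of 13 were higher and 1 lower at the unadjusted limit, to be read beside the same 5.56% and 15.9% of all tested genes, as are the lists that follow. The 3 were integrin subunits. Itgb8 was 0.05, 0.05 and 0.12 FPKM in the normal mice and 0.99, 5.16 and 0.30 FPKM in the colitis mice (2.95, SE 0.89, adjusted p = 0.11). Itgb6, the epithelial partner of Itgav, was 9.18, 13.59 and 7.94 FPKM in the normal and 24.14, 39.30 and 19.20 FPKM in the colitis mice (1.39, SE 0.62, adjusted p = 0.225). Itgav differed by 1.28 (SE 0.44, adjusted p = 0.141), also with no overlap. Squamous epithelium markers summed to 1.27 to 2.68 FPKM in normal and 2.04 to 7.29 FPKM in colitis mice, which overlap. The macrophage sums given above were higher in every colitis mouse than in every normal mouse. The part of these cells in the integrin values was not tested. Ltbp4, a latent TGF-beta binding protein, was 17.25, 22.38 and 37.68 FPKM in the normal and 1.07, 3.67 and 8.68 FPKM in the colitis mice (−2.86, SE 0.79, adjusted p = 0.0937), and it passed with a block for the mice numbered 4 (adjusted p = 0.015). The 8 smooth muscle markers were all lower too, with a median of −3.04, and the part of muscle in Ltbp4 was not tested. The list was mixed, since another integrin subunit, Itgb5, had a negative difference (−0.38, SE 0.20, adjusted p = 0.272) and another binding protein, Ltbp2, a positive one (0.56, SE 0.49, adjusted p = 0.492).

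The 7 other receptors and co-receptors all had a negative difference, with a median of −0.69, and 1 of them, Acvrl1, had an unadjusted p of at most 0.05 (−0.98, SE 0.36, adjusted p = 0.157, and −0.60 after quantile normalization). After quantile normalization their median was −0.33. Over all tested genes the median was −0.32 as deposited and −0.05 after quantile normalization. Acvrl1 and Eng are known from endothelium, and all 5 endothelial markers also had a negative difference, with a median of −1.16. These markers summed to 20.9 to 22.6 FPKM in normal and 6.3 to 16.7 FPKM in colitis mice, with none at 0 throughout a group, and their part in the receptor values was not tested. Of the 11 Smads and regulators 1, Smad4, was higher and 2, Tgif1 and Zfyve9, were lower at that limit. Zfyve9 differed by −0.90 (SE 0.27, adjusted p = 0.108), but by −0.53 after quantile normalization (limma unadjusted p = 0.0716). Smad4, the shared partner of the Smads, was 17.91, 20.62 and 21.13 FPKM in the normal and 27.50, 23.22 and 40.36 FPKM in the colitis mice (0.57, SE 0.25, adjusted p = 0.213). Tgif1, a repressor that binds Smads, was 28.11, 20.62 and 27.15 FPKM in the normal and 13.64, 12.56 and 14.88 FPKM in the colitis mice (−0.87, SE 0.21, adjusted p = 0.0662).

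Of the 8 extracellular inhibitors and binders, 2 were lower at the unadjusted limit, the pseudoreceptor Bambi (−1.01, SE 0.32, adjusted p = 0.124, but −0.54 with an unadjusted p of 0.11 after quantile normalization) and the co-receptor Cd109 (−2.05, SE 0.73, adjusted p = 0.152). Of the 10 other ligands 7 had a row and 5 were tested, and Gdf10 was lower (−2.71, SE 0.65, adjusted p = 0.0652).

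Of 18 TGF-beta target genes 0 were higher and 7 lower at the unadjusted limit, where 5.56% and 15.9% of all tested genes were, with a median of −0.58, which was −0.24 after quantile normalization. The lower ones included Acta2 (−2.83, SE 0.89, adjusted p = 0.118), Tagln (−2.36, SE 0.78, adjusted p = 0.133) and Postn (−2.05, SE 0.61, adjusted p = 0.107). Acta2 and Tagln are also 2 of the 8 smooth muscle markers above, all 8 of which were lower at the unadjusted limit, where 15.9% of tested genes were, and the part of muscle in them was not tested.

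With BBR in colitis mice 0 of the 62 genes passed the adjusted limit in limma, where 0% of tested genes did. At the unadjusted limit 1 was higher and 1 lower, where 1.19% of tested genes were higher and 5.2% lower. Their median was −0.20, against −0.09 over all tested genes. The lower one was Snai2, a transcription factor of mesenchymal cells (−1.45, SE 0.56, adjusted p = 0.651), without overlap. Gdf15, a stress-induced ligand, was the higher one (1.42, SE 0.65, adjusted p = 0.779). Of the 13 genes of latent TGF-beta 11 had a negative difference and 0 an unadjusted p of at most 0.05. In normal mice receiving BBR against normal mice 0 of 62 passed either limit, where 0% of all tested genes passed the adjusted and 1.36% the unadjusted one.

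**Figure D4:**
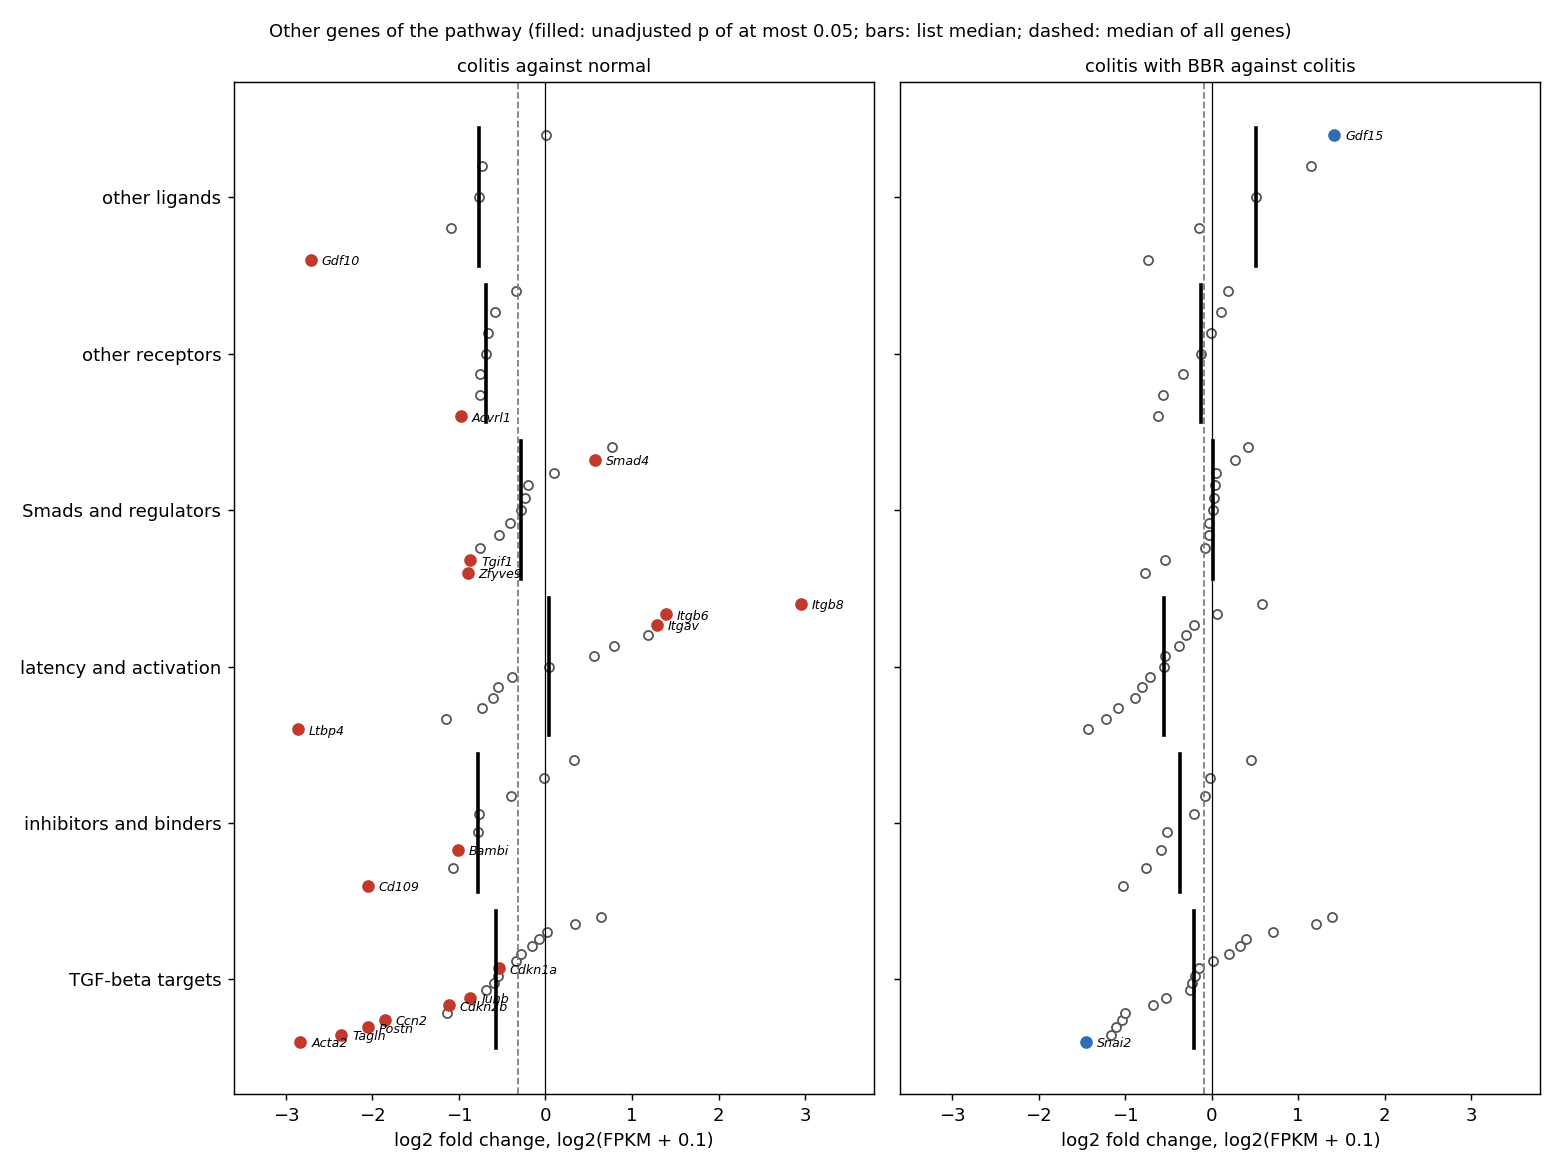
Log2 fold change on the log2(FPKM + 0.1) scale of the other genes of the pathway by list, for colitis against normal mice (left) and colitis mice with against without BBR (right); filled points have an unadjusted p of at most 0.05, black bars are list medians and the dashed line is the median of all tested genes. Itgb8, at 2.95, is the highest in colitis against normal mice, and Snai2, at −1.45, is the lowest with BBR.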

How the data were processed

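RNA of 12 mice was sequenced by the authors, 3 in each of 4 groups taken from the sample labels. The reads were filtered with SOAPnuke, aligned with Bowtie2 2.2.5 to mm9 and quantified with RSEM 1.2.12, per the paper's methods and the submitters' processing notes. The values that the authors deposited, 1 column per mouse, were taken as FPKM made by RSEM, by their size, since the unit is not named, and TPM cannot be told apart. The methods name rRNA depletion and BGISEQ-500 sequencing, whereas the labels name another kit and sequencer.

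The 15315 of 17734 genes with a mean of at least 0.1 entered limma 3.58.1 (R 4.3.3) as log2(FPKM + 0.1), with 1 mean per group, a trend on mean expression and Benjamini-Hochberg adjustment. The p-values measure only the spread between these samples, which may be technical in part. Single genes were also tested by an exact two-sided permutation test. The fit was tested on simulated data, which held no step for the mice numbered 4. Of 200 genes changed by 2 on the log2 scale 111 were called, and of 200 changed by 4 185 were. Calls among the unchanged genes were 7 and 12. The worth of 1 read came from the spacing of low values in single-transcript genes. Figures and ratios were made in Python 3.11.15 with pandas 2.3.3 and matplotlib 3.10.9. The named genes were all 10 members, the genes of 6 pathway lists (1 listed gene is not reported here) and, for 4 ligands, the 3 genes with the highest Pearson r. The members, lists and alternatives, including the fits that set the mice numbered 4 apart, were chosen with earlier results of these data known.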

Additional observations from a re-analysis of the deposited data

Results flagged for a closer look

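For 2 members the difference between the effects of BBR in colitis and in normal mice had an unadjusted p of at most 0.05 in limma, where 2.42% of all tested genes did, and neither passed after adjustment. With each mouse left out in turn the unadjusted limit was met in 5 of 12 fits for Tgfbr1 and 6 of 12 for Inhba, with p up to 0.0735 and 0.125. For Inhba the unadjusted p of the limma fit was 0.0544 with centring on the median, 0.0637 with a pseudocount of 0.01 and 0.051 with no filter. For Tgfbr1 the interaction was −0.885 on the log2 scale. All 3 normal mice receiving BBR, at 5.94 to 7.32 FPKM, lay above the normal mice, at 4.56 to 5.76, while colitis mice receiving BBR, at 2.95 to 4.83, overlapped the colitis mice, at 4.28 to 6.28. For Inhba the interaction was −1.99. Over the mice numbered 1 to 3 the values were −0.97 for Tgfbr1 and −2.53 for Inhba.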

How the results depend on the processing

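Of 551 values of single members under the alternatives, 518 kept their direction and side of the limit, 31 changed sign and 2, both Smad7 in colitis against normal mice, came to pass. They passed with the 8 mice numbered 1 to 3 (−1.83) and with a block for the mice numbered 4 (−1.45), and the count of members called was then 1, as it was for colitis mice receiving BBR against normal mice over the 8 mice. Tgfb1 in colitis against normal mice was 0.29 with quantile normalization, 0.28 with centring on the median and 0.041 over the 8 mice, and Tgfbi was 0.0015 with a pseudocount of 1, then 0.18, 0.33 and 0.15. Over the 8 mice, BBR in colitis gave −0.34 for Tgfb3 and 0.021 for Skil, and the interaction gave 0.17 for Skil. The cause was not tested.

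Leaving out each mouse in turn changed signs. In colitis against normal mice Tgfb1 ranged from −0.27 to 0.34, Tgfbi from −0.36 to 0.35 and Tgfbr2 from −0.16 to 0.36. For BBR in colitis Skil ranged from −0.51 to 0.061, Smad7 from −0.15 to 1.06, Tgfb2 from −0.24 to 1.17, Tgfb3 from −0.53 to 0.72 and Tgfbr2 from −0.44 to 0.11. For the interaction Tgfb2 ranged from −0.52 to 0.94, Tgfb3 from −1.03 to 0.22 and Tgfbr2 from −0.54 to 0.0042. Leaving out 1 mouse gave 11 to 211 genes called in colitis against normal mice, with 11 to 16 without a normal mouse, 14 without colitis mouse 1, 77 without colitis mouse 2 and 211 without colitis mouse 4. It gave 0 to 58 for BBR in colitis, with 58 without mouse 3 of the colitis mice receiving BBR and at most 1 otherwise. It gave 0 to 2895 for colitis mice receiving BBR against normal mice and 0 to 2255 against normal mice receiving BBR, with the highest counts without mouse 4 of the colitis mice receiving BBR and at most 2 otherwise, and with 0 to 2 members in these 2 comparisons.

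The 165 genes called in colitis against normal mice became 91 with a pseudocount of 0.01, 71 with a filter at a mean of 1, which leaves Tgfb2, Inhba and Inhbb untested, 258 with quantile normalization, 804 over the 8 mice and 488 with these groups alone. The 0 for BBR in colitis became 4 with a pseudocount of 1, 2 with 0.01, 1 with no filter and 3 with no trend. BBR in normal mice gave 1 with these groups alone. The 3 of colitis mice receiving BBR against normal mice became 0 with no trend, 2157 over the 8 mice and 0 with these groups alone. The 6 against normal mice receiving BBR became 2 with no filter, 3 with centring, 12 with no trend, 2302 over the 8 mice and 0 with these groups alone.

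The labels give the groups partly shared numbers, which were not taken as pairing. Deviations from group means correlated at 0.357 to 0.751 between mice numbered 4, at 0.0777 to 0.386 between other mice of the same number and at −0.15 to 0.456 between mice numbered 1 to 3 of different numbers. A replicate block gave 734 genes in colitis against normal mice, 1 for BBR in colitis and 0 for colitis mice receiving BBR against normal mice, and 0 members (Smad7 adjusted p = 0.0503). A block for the mice numbered 4 gave 1412, 2, 40 and, against normal mice receiving BBR, 268. Depth limits Inhbb and the lowest Inhba and Tgfb2 values, since few reads lie behind them.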
